A study of Homo sapiens with 8 samples.

Results

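The H3K27ac landscape of 4 genes that set the activity of NRF2 was examined in A549 cells with and without knockdown of CEBPB. The genes were NFE2L2, which encodes NRF2, and KEAP1, MAFG and BACH1. All deposited peaks within 50 kb of each gene span on hg19 were taken. The spans were 178.095 to 178.130 Mb on chromosome 2 for NFE2L2, 10.597 to 10.614 Mb on chromosome 19 for KEAP1, 79.876 to 79.886 Mb on chromosome 17 for MAFG and 30.671 to 30.718 Mb on chromosome 21 for BACH1. Peaks of the 4 libraries that overlapped by 1 bp or more were merged into regions, which gave 29 regions in these windows out of 60669 over chromosomes 1 to 22 and X. NFE2L2 had 7 regions, KEAP1 2, MAFG 11 and BACH1 9.

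A549 is an established human lung adenocarcinoma line, called NRF2-activated by the submitters, and H3K27ac is a histone acetylation found at active promoters and enhancers. Cells of the control group received a control siRNA, and cells of the knockdown group received CEBPB siRNA-1 or CEBPB siRNA-2, which are different siRNAs against the transcription factor gene CEBPB. All were kept in the same medium and taken 48 h after transfection. There were 2 control libraries (control 1 and control 2) and 2 knockdown libraries (siRNA-1 and siRNA-2), and each siRNA served as a replicate of the knockdown. Whether the controls were separate cultures is not stated, so p-values measure only the spread between these libraries, which may be technical, and the knockdown spread also holds any difference between the siRNAs. How far CEBPB itself was lowered cannot be read from peak lists.

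NRF2 is a basic leucine zipper activator of antioxidant and detoxification genes. KEAP1 is the substrate adaptor that hands NRF2 to a CUL3 ubiquitin ligase for degradation, so NRF2 accumulates when KEAP1 function is lost or its cysteines are modified. NRF2 binds antioxidant response elements (AREs) as a heterodimer with a small MAF protein such as MAFG, and BACH1, a haem-sensitive repressor, competes for the same sites, also as a heterodimer with small MAF proteins. CEBPB is a basic leucine zipper factor of another family.

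The start of every one of the 4 genes lay in or beside a region called in all 4 libraries. The sequences before these starts are given as the promoters nearest to those regions. For BACH1, whose start is known here only to 1 kb, the 4 peaks began between 30671073 and 30671184, after the start used. They are the 250 bases before the outermost start in the RefSeq promoter table, 5′ to 3′ on the coding strand. They come from GRCh38.p14 and were not placed on the hg19 peaks. They lie at chr2:177264728-177264977 (minus strand, NFE2L2), chr19:10503357-10503606 (minus strand, KEAP1), chr17:81927736-81927985 (minus strand, MAFG) and chr21:29298672-29298921 (plus strand, BACH1). Capitals mark the only motif match found, an AP-1 site.
NFE2L2: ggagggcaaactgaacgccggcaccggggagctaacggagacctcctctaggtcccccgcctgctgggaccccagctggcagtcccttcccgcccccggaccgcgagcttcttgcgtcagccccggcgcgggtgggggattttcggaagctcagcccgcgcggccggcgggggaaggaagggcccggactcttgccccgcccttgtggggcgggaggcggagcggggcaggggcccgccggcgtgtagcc
KEAP1: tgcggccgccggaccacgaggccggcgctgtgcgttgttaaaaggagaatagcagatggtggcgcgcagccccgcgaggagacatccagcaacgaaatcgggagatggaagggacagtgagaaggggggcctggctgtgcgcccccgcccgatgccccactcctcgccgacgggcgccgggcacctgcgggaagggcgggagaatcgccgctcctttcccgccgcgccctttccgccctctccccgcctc
MAFG: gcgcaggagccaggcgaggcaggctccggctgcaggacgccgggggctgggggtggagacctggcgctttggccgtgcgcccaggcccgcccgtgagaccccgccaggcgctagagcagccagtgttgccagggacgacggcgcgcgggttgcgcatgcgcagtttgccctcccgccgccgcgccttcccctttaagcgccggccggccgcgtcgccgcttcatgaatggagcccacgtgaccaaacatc
BACH1: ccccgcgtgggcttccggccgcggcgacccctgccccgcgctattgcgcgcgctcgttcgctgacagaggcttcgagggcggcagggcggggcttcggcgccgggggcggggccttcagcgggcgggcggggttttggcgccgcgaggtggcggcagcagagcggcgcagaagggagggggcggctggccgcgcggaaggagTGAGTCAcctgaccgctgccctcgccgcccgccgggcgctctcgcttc
All 4 sequences were rich in G and C: 74.8% for NFE2L2, 70.4% for KEAP1, 73.2% for MAFG and 78.4% for BACH1, against a median of 58% over the 35116 promoters of the table. Both strands were searched for the ARE core TGACNNNGC, for the C/EBP pattern TTGCNNAA and for the AP-1 site TGANTCA, where an ARE core can overlap an AP-1 site. The single match was TGAGTCA in the BACH1 sequence, 48 to 42 bases before the start. Of all promoters, 10.9% held the ARE core, 9.05% the C/EBP pattern and 6.57% the AP-1 site. The absence of a match says only that these letters are not in this stretch of 250 bases.

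**Figure D1:**
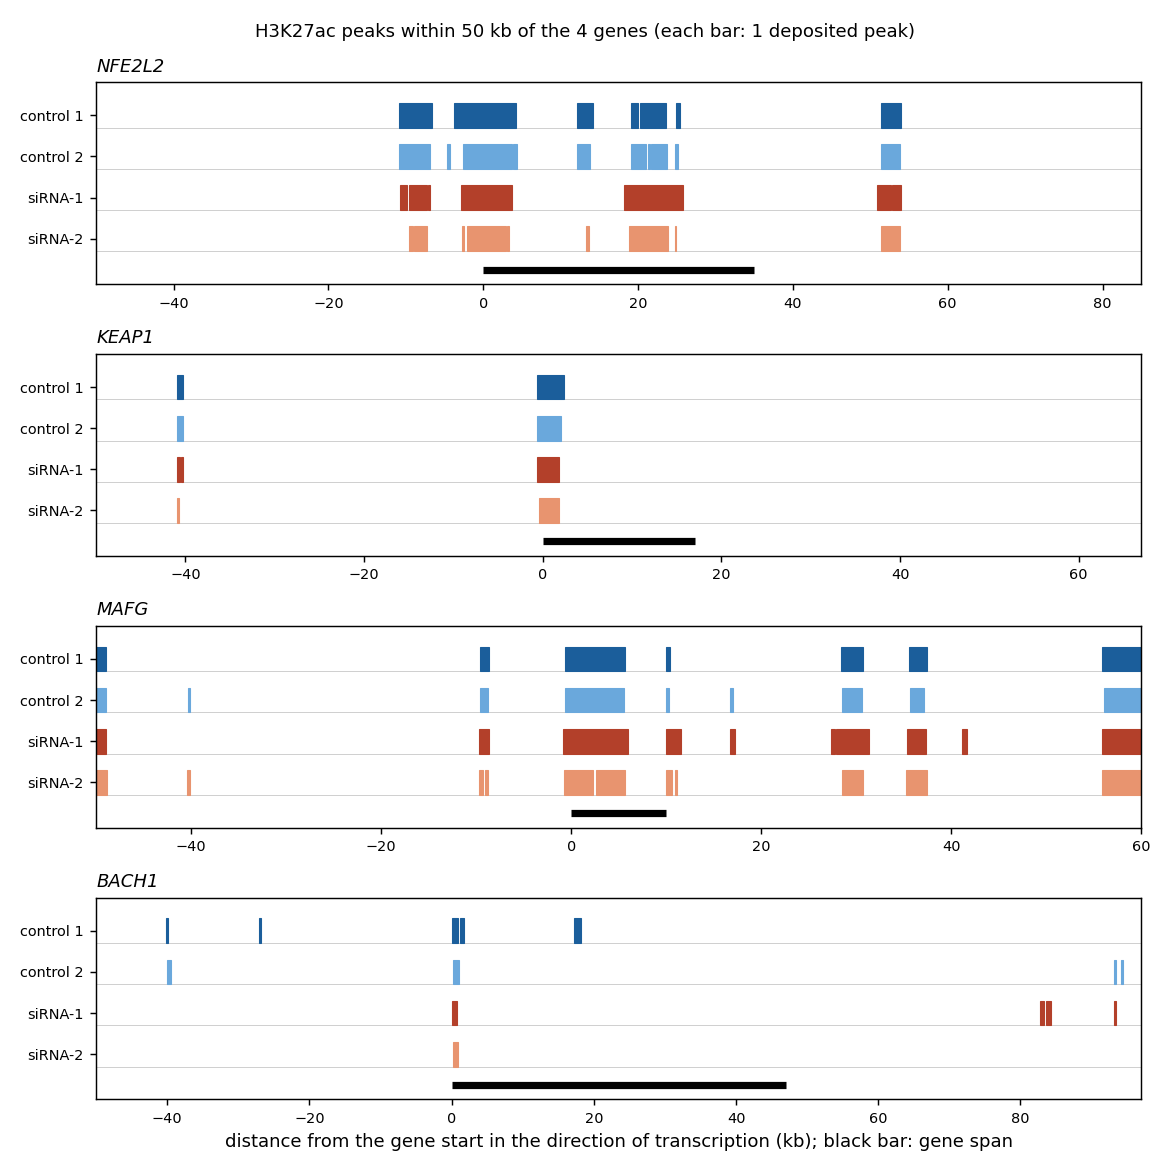
Each bar is 1 deposited H3K27ac peak. The horizontal axis is the distance in kb from the start of the gene span in the direction of transcription, 1 panel per gene and 1 row per library. The black bar is the gene span. NFE2L2 and MAFG were surrounded by several peaks in every library, KEAP1 by 2 or 3, and BACH1 by 5 peaks in control 1 and 1 with siRNA-2.

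In each of the 4 windows the gene start region was called in both control and CEBPB knockdown libraries. Elsewhere the libraries differed both in which regions were called and in how long a called region was. Of the 29 regions, 14 (48.3%) were called in all 4 libraries, against 39.8% of all merged regions. No region was gained, that is, called with both siRNAs and in neither control, where 6.76% of all regions were. A single region (3.45%) was lost, that is, called in both controls and with neither siRNA, against 7.01% of all regions. A further 10 regions were called in 1 library only, 4 of them in control 1, 2 in control 2, 4 in the siRNA-1 library and 0 in the siRNA-2 library. Another 4 were called in 2 or 3 libraries in a mix of treatments.

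The length of DNA inside peaks (called length) was compared in the 14 regions called in all 4 libraries. In 5 of them (35.7%) it was shorter with both siRNAs than in both controls, against 25.6% of such regions over the genome. In 3 (21.4%) it was longer with both siRNAs, against 26.9% over the genome. These shares are near the background, so a difference in length between the groups is not particular to these genes. The 5 shorter regions were the starts of NFE2L2, KEAP1 and BACH1, a region before NFE2L2 and a region before KEAP1. The 3 longer regions were 1 inside NFE2L2, 1 at the end of MAFG and 1 beyond it. With 2 libraries against 2, an exact permutation test cannot give a p below 0.333, and every such region had exactly that p (two-sided).

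**Figure D2:**
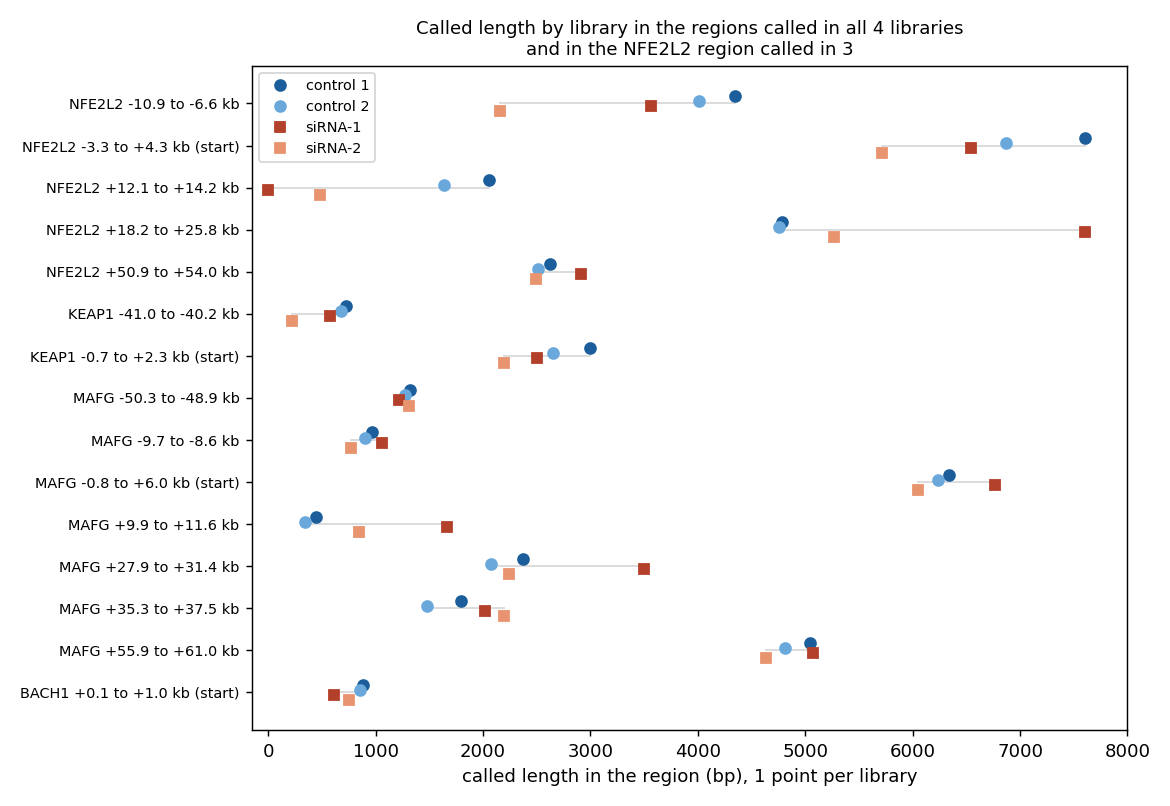
Called length in bp in each region, 1 point per library, for the 14 regions called in all 4 libraries and the NFE2L2 region called in 3. Names give the region's distance in kb from the gene start. The controls lie to the right of both knockdown libraries at the NFE2L2, KEAP1 and BACH1 starts, and to the left of both in the NFE2L2 region 18.2 to 25.8 kb inside the gene.

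NFE2L2, the gene of NRF2 itself, had its strongest acetylation at the start. That region ran from 178125654 to 178133342 on chromosome 2, from 3.34 kb before to 4.35 kb after the start. Its called length was 7606 bp in control 1, 6867 bp in control 2, 6548 bp with siRNA-1 and 5718 bp with siRNA-2. Both knockdown libraries lay below both controls, with a difference of -1103.5 bp (knockdown minus control throughout, controls 7237 ± 523 bp, knockdown 6133 ± 587 bp, mean ± SD, n = 2 each, exact permutation p = 0.333). The control 1 call was a single peak, control 2 and siRNA-2 added short flanking peaks, and siRNA-1 had a single peak again. Counting only peaks with a −log10 q of 10 or more, the groups overlapped here, with 6377 bp in control 2 and 6548 bp with siRNA-1. The difference was -688.5 bp without siRNA-2 and -734 bp without control 1.

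The fold enrichment at a peak's summit is the authors' own value for that peak. It depends on the depth of its list, which is unknown, and is used here to rank peaks within a list. At the NFE2L2 start it was 62.2 in control 1 and 57.5 in control 2, at percentiles 99.0 and 99.1 of their lists. With siRNA-1 it was 32.5, at percentile 92.4, and with siRNA-2 40.6, at percentile 97.1. The siRNA-1 list placed 3 of the gene starts lower in its own ranking than the other lists did: KEAP1 stood at percentile 87.4 and MAFG at 91.7, against 96.6 to 99.0 in the other 3 lists. The BACH1 start stood between percentiles 64.3 and 73.0 in all 4 lists. By −log10 q the siRNA-1 list placed these starts at percentiles 93.8 (NFE2L2), 92.6 (KEAP1) and 96.7 (MAFG), each above their percentile by fold. These were still below every other list, with percentiles of 95.4 to 98.3 (NFE2L2), 97.4 to 97.8 (KEAP1) and 97.1 to 98.0 (MAFG). The part of the fold scale of the siRNA-1 list in any ratio to a gene start below was not tested.

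Inside NFE2L2, a broad region 18.2 to 25.8 kb after the start (178104242 to 178111848) was called over a longer stretch after knockdown. Control 1 called 4780 bp there in 3 peaks and control 2 called 4758 bp in 4 peaks. The siRNA-1 library called 7607 bp as a single peak and the siRNA-2 library 5265 bp in 2 peaks. That siRNA-1 peak alone set both limits of the region. The longest stretch in it called with both siRNAs and in neither control was 243 bp (178110890 to 178111132). Both knockdown libraries lay above both controls, with means of 6436 ± 1656 bp against 4769 ± 15.6 bp (SD, n = 2 each, exact permutation p = 0.333). The difference of 1667 bp rests much on siRNA-1: it was 496 bp without that library and 2838 bp without siRNA-2. The groups stayed apart with a −log10 q of 10 or more and with equal called length per library. The widest peak was 3398 bp in control 1 and 2109 bp in control 2, against 7607 bp with siRNA-1 and 5023 bp with siRNA-2. This region lies wholly within the gene span. Exon and intron limits on hg19 were not used here.

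The rank of this inner region within its list was also higher with both siRNAs than in both controls. No genome share was computed for such a separation by rank or fold enrichment. Its best fold enrichment was 11.2 in control 1 and 10.6 in control 2, at percentiles 70.2 and 70.4. With siRNA-1 it was 19.8, at percentile 83.8, and with siRNA-2 it was 24.0, at percentile 90.2. As a share of the fold enrichment at the gene start in the same list, this came to 17.9% in control 1 and 18.4% in control 2. It came to 60.8% in the siRNA-1 list and 59.0% in the siRNA-2 list. The share is a description within each list and its denominator, the gene start, was itself lower in rank with siRNA-1. Its summit was at 178107063 in control 1 and 178107085 in control 2, and nearer to the gene start, at 178108025 with siRNA-1 and 178107865 with siRNA-2.

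Before NFE2L2, a region 6.57 to 10.9 kb upstream of the start (178136570 to 178140919) was called over a shorter stretch after knockdown. It was 1 unbroken peak of 4350 bp in control 1 and of 4009 bp in control 2. With siRNA-1 it broke into 3 peaks covering 3561 bp, and with siRNA-2 into 2 peaks covering 2161 bp. Both knockdown libraries lay below both controls, with means of 2861 ± 990 bp against 4180 ± 241 bp (SD, n = 2 each, exact permutation p = 0.333). The difference of -1318.5 bp was -618.5 bp without siRNA-2 and -2018.5 bp without siRNA-1. Best fold enrichments were 19.7 and 17.7 in controls 1 and 2, at percentiles 85.0 and 84.4. They were 13.8 with siRNA-1, at percentile 75.3, and 8.23 with siRNA-2, at percentile 59.7.

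The upstream and the inner region of NFE2L2 thus stood in opposite order in the 2 groups of lists. In each control list the upstream region had the higher fold enrichment, 1.77 times that of the inner region in control 1 and 1.67 times in control 2. In each knockdown list the inner region had the higher one, and the ratio of upstream to inner was 0.697 with siRNA-1 and 0.343 with siRNA-2. Among the 28 pairs of regions called in all 4 libraries within these windows, this was the only pair (3.57%) whose order was opposite between the groups. Over the genome 8.97% of 60181 pairs lying within 127.25 kb were, so such a switch is not rare. The pair was singled out after its values were seen.

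A smaller region inside NFE2L2, 12.1 to 14.2 kb after the start (178115833 to 178117890), was called over 2058 bp in control 1 and 1636 bp in control 2. The siRNA-1 list had no peak in it, and siRNA-2 had a peak of 481 bp. Within it, 1096 bp (178116776 to 178117871) were called in both controls and with neither siRNA, the longest such stretch in the 4 windows. It was a moderate region, with fold enrichments of 8.68 in control 1, 8.08 in control 2 and 4.65 with siRNA-2. Since a single siRNA-2 peak remained, it was not counted as lost. That peak had a −log10 q of 5.04, so the region did count as lost where a value of 10 or more was required.

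The last NFE2L2 region called in all 4 libraries lay 50.9 to 54.0 kb after the start, beyond the gene end (178076018 to 178079073). Its called length was 2626 bp in control 1, 2510 bp in control 2, 2915 bp with siRNA-1 and 2494 bp with siRNA-2, so the groups overlapped (exact permutation p = 1). In RefSeq on GRCh38 the only protein-coding gene within 50 kb of NFE2L2 is HNRNPA3, which encodes an RNA-binding protein and lies on this side of NFE2L2. The hg19 peaks were not assigned to it. The other 2 regions of the window were single short peaks before the start, 298 bp in control 1 and 302 bp in control 2, and neither had a counterpart with an siRNA.

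Over the whole NFE2L2 window of 135 kb these differences partly cancelled. Called length was 21718 bp in control 1, 20082 bp in control 2, 20631 bp with siRNA-1 and 16119 bp with siRNA-2. The groups overlapped, since siRNA-1 lay between the controls (controls 20900 ± 1157 bp, knockdown 18375 ± 3190 bp, SD, n = 2 each, exact permutation p = 0.667). The difference of -2525 bp was -269 bp without siRNA-2 and -4781 bp without siRNA-1. Per Mb of DNA called in the whole list the groups did not overlap, with 320 bp in control 1, 324 bp in control 2, 293 bp with siRNA-1 and 261 bp with siRNA-2. No genome share was computed on that scale. The groups overlapped with a flank of 10 kb, in the gene span alone, with a −log10 q of 10 or more and with equal called length. Peaks numbered 8 and 10 in controls 1 and 2, and 7 and 9 with siRNA-1 and siRNA-2.

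**Figure D3:**
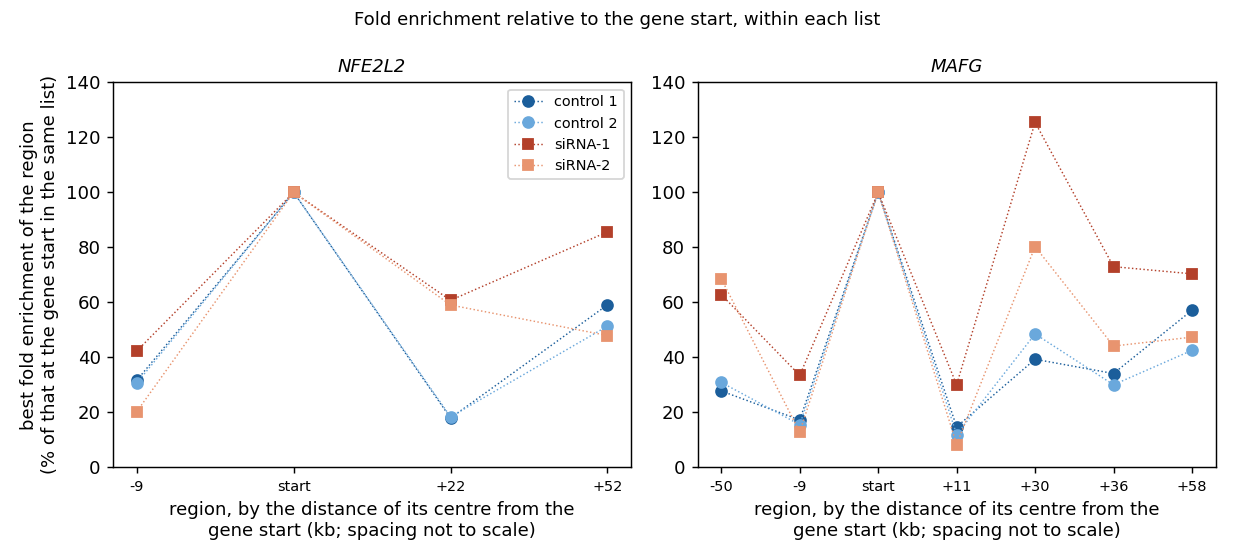
Best fold enrichment of each region called in all 4 libraries, as a percentage of that at the gene start in the same list (vertical axis), for NFE2L2 (left) and MAFG (right). Regions are in order along the gene and lines only join points of a library. The NFE2L2 region centred 22 kb after the start sits near 18% in both controls and near 60% with both siRNAs. The fold enrichment at the NFE2L2 start, the denominator, was lower with both siRNAs than in both controls.

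KEAP1, the inhibitor of NRF2, had very little acetylation besides its start. The start region ran from 10611651 to 10614670 on chromosome 19, mostly inside the gene, and was 1 peak in every library. Its called length was 2997 bp in control 1, 2652 bp in control 2, 2498 bp with siRNA-1 and 2197 bp with siRNA-2. Both knockdown libraries were below both controls, with means of 2348 ± 213 bp against 2825 ± 244 bp (SD, n = 2 each, exact permutation p = 0.333). The groups stayed apart with a −log10 q of 10 or more, with equal called length and per Mb called. The difference of -477 bp was -304.5 bp without control 1. Its summits lay close together, from 10613145 in control 2 to 10613190 with siRNA-2. Fold enrichments were 57.1, 48.5, 23.7 and 53.7 in control 1, control 2, siRNA-1 and siRNA-2. The siRNA-2 list thus held this peak at percentile 99.0 although its called length was the shortest of the 4.

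A weak region 40.2 to 41.0 kb before KEAP1 (10654248 to 10655001) was also called in all 4 libraries. Its called length was 722 bp in control 1 and 673 bp in control 2, against 571 bp in 2 peaks with siRNA-1 and 221 bp with siRNA-2. Fold enrichments ranged from 4.18 to 7.22, and only the control 1 peak had a −log10 q of 10 or more. RefSeq on GRCh38 places PDE4A on the far side of KEAP1 and S1PR5, ATG4D and KRI1 on this side, among genes within 50 kb. Over the whole window, called length was 3719 bp in control 1 and 3325 bp in control 2, against 3069 bp with siRNA-1 and 2418 bp with siRNA-2. The groups did not overlap (3522 ± 279 bp against 2744 ± 460 bp, SD, n = 2 each, exact permutation p = 0.333), as in 26.9% of tiles of 127.25 kb over the genome in that direction. The difference of -778.5 bp was -453 bp without siRNA-2.

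MAFG, the small MAF partner of NRF2, lay among many other genes and had the most regions of the 4 windows. RefSeq on GRCh38 lists 10 protein-coding genes within 50 kb of it, among them PYCR1, SIRT7 and ARHGDIA, and peaks were not assigned to them. The region at the MAFG start (79880049 to 79886811 on chromosome 17) covered most of the gene. Its called length was 6336 bp in control 1, 6238 bp in control 2, 6763 bp with siRNA-1 and 6051 bp with siRNA-2. The groups overlapped, with means of 6287 ± 69.3 bp in controls and 6407 ± 503 bp after knockdown (SD, n = 2 each, exact permutation p = 1). With siRNA-2 alone the region was called as 2 peaks of 3043 and 3008 bp, although its fold enrichment of 47.1 stood at percentile 98.2. The highest summit lay between 79881696 and 79881774 in all 4 libraries, some 4.2 to 4.3 kb after the start, not at it.

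Both MAFG regions with longer calls after knockdown lay at or beyond the gene end. A region 35.3 to 37.5 kb after the start (79848523 to 79850713) had 1797 bp in control 1, 1478 bp in control 2, 2021 bp with siRNA-1 and 2191 bp with siRNA-2. Both knockdown libraries were above both controls, by 469 bp on average (2106 ± 120 bp against 1638 ± 226 bp, SD, n = 2 each, exact permutation p = 0.333). The difference was 309 bp without control 2. The longest stretch in it called with both siRNAs and in neither control was 230 bp. Fold enrichment of the region stood at percentiles 78.5 and 76.4 in controls 1 and 2 and at 86.5 and 87.4 with siRNA-1 and siRNA-2. At the gene end, a weaker region (79874400 to 79876065) had 448 bp in control 1, 341 bp in control 2, 1666 bp with siRNA-1 and 847 bp with siRNA-2. That difference of 862 bp was 453 bp without siRNA-1. Its fold enrichment did not follow the length: with siRNA-2 it was 3.92, at percentile 14.6, below 6.48 in control 1 and 5.14 in control 2, at percentiles 50.3 and 38.2. With siRNA-1 it was 9.29, at percentile 63.0. Only the peaks of control 1 and siRNA-1 there had a −log10 q of 10 or more, at which the groups overlapped. The longest stretch of this region called with both siRNAs and in neither control was 220 bp.

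A strong region 27.9 to 31.4 kb after the MAFG start (79854624 to 79858117) stood apart between the groups in its rank within the lists but not in length. Called length was 2375 bp in control 1, 2075 bp in control 2, 3494 bp with siRNA-1 and 2238 bp with siRNA-2, so the groups overlapped (exact permutation p = 0.667). The difference of 641 bp was 13 bp without siRNA-1, while per Mb called the groups did not overlap, a scale for which no genome share was computed. Fold enrichments were 17.3 in control 1 and 20.9 in control 2, at 39.3% and 48.5% of that at the MAFG start. With siRNA-1 it was 38.8, or 125% of that at the start, and with siRNA-2 it was 37.8, or 80.3%. By −log10 q the siRNA-1 list placed this region below the MAFG start, at 232 against 251 and percentiles 96.1 and 96.7, so the order of these 2 in that list depends on the measure. A region 48.9 to 50.3 kb before MAFG (79934897 to 79936328) also stood apart by fold enrichment, while the groups overlapped in length. It covered 1317, 1273, 1215 and 1306 bp in control 1, control 2, siRNA-1 and siRNA-2, with fold enrichments of 12.2, 13.3, 19.4 and 32.3. Ranked by −log10 q the groups overlapped there, at percentiles 80.0, 83.2, 82.1 and 92.4 in the same order. Fold enrichments of different lists are set side by side here and were not tested against each other. No genome share was computed for regions whose groups stood apart by fold enrichment or by rank.

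The other MAFG regions differed less. The region at the far edge of the window, 55.9 to 61.0 kb after the start (79825024 to 79830103), covered 4636 to 5073 bp with both groups overlapping, and the region 8.60 to 9.70 kb before the start covered 766 to 1057 bp. Of the 4 regions not called in all libraries, 2 were called with siRNA-1 alone, and 2 were shared by control 2 and a single siRNA. All 4 had fold enrichments under 6 in every list that called them. Over the whole MAFG window, called length was 17011 bp in control 1 and 16509 bp in control 2, against 21484 bp with siRNA-1 and 17622 bp with siRNA-2. The groups did not overlap (16760 ± 355 bp against 19553 ± 2731 bp, SD, n = 2 each, exact permutation p = 0.333), as in 29.6% of tiles over the genome in that direction. The difference of 2793 bp was 862 bp without siRNA-1 and 4724 bp without siRNA-2, and within the gene span alone it was 27 bp. The groups overlapped with a flank of 10 kb (1084.5 bp, exact permutation p = 1) and with a −log10 q of 10 or more (1789 bp, exact permutation p = 0.667). Peaks numbered 7 and 9 in the controls and 10 and 11 with the siRNAs, a difference of 2.5 (exact permutation p = 0.333). No genome share was computed for peak number. That difference was 0.5 with a −log10 q of 10 or more and in the gene span alone, and 1 with equal called length.

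BACH1, the repressor that competes with NRF2, had the shortest called length per library of the 4 windows, though more regions than KEAP1 (9 against 2) and more bases called in any library (5156 against 3774). Its only region called in all 4 libraries lay at the start (30671073 to 30672005 on chromosome 21). Called length there was 880 bp in control 1, 854 bp in control 2, 615 bp with siRNA-1 and 756 bp with siRNA-2. Both knockdown libraries were below both controls, with a difference of -181.5 bp (686 ± 99.7 bp against 867 ± 18.4 bp, SD, n = 2 each, exact permutation p = 0.333). The difference was -111 bp without siRNA-1. Fold enrichments were 10.4, 11.6, 10.3 and 9.29 in control 1, control 2, siRNA-1 and siRNA-2. The 4 summits lay between 30671308 and 30671369.

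The single lost region of the 4 windows lay 39.5 to 40.2 kb before BACH1 (30630781 to 30631491). It rested on a peak of 287 bp in control 1 with a fold enrichment of 4.59 and a peak of 563 bp in control 2 with 4.01. Both were weak, at percentiles 30.4 and 18.0 of their lists. The 6 regions called in 1 library only were 3 of control 1, 1 of control 2 and 2 of siRNA-1. The strongest of these were 2 siRNA-1 peaks of 618 and 649 bp beyond the BACH1 end, with fold enrichments of 8.65 and 7.21. The siRNA-2 library had no peak in the window other than that at the start. Called length over the window was 2842 bp in control 1, 1901 bp in control 2, 2212 bp with siRNA-1 and 756 bp with siRNA-2, and the groups overlapped (exact permutation p = 0.667). The difference of -887.5 bp was -159.5 bp without siRNA-2, -1615.5 bp without siRNA-1, -417 bp without control 1 and -1358 bp without control 2. With equal called length per library it was -71.5 bp. With a −log10 q of 10 or more it was 452 bp, in the other direction. Within the gene span alone the groups did not overlap (-840 bp, exact permutation p = 0.333). That value rests much on weak peaks of 432 and 885 bp that control 1 alone called, with fold enrichments of 4.18 and 3.79. The only other call in the span was the start region, where the difference without control 1 was -168.5 bp. No genome share was computed for gene spans.

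Counted by base, most DNA called in both controls was also called after knockdown. At NFE2L2, 2010 of 19164 bases called in both controls (10.5%) were called with neither siRNA, against 12.4% over the genome. At KEAP1 it was 333 of 3325 bases (10.0%), at BACH1 152 of 940 (16.2%) and at MAFG 0 of 15897. In the other direction, 727 of 16988 MAFG bases called with both siRNAs (4.28%) were called in neither control, against 12.6% over the genome. At NFE2L2 it was 364 of 15475 bases (2.35%), and at KEAP1 and BACH1 it was 0. Bases called in all 4 libraries were 55.7% of all bases called in the NFE2L2 window, 64.1% at KEAP1, 69.3% at MAFG and 10.7% at BACH1, against 43.6% over the genome. Bases of a region are not replicates of a treatment, and these shares carry no test.

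**Figure D4:**
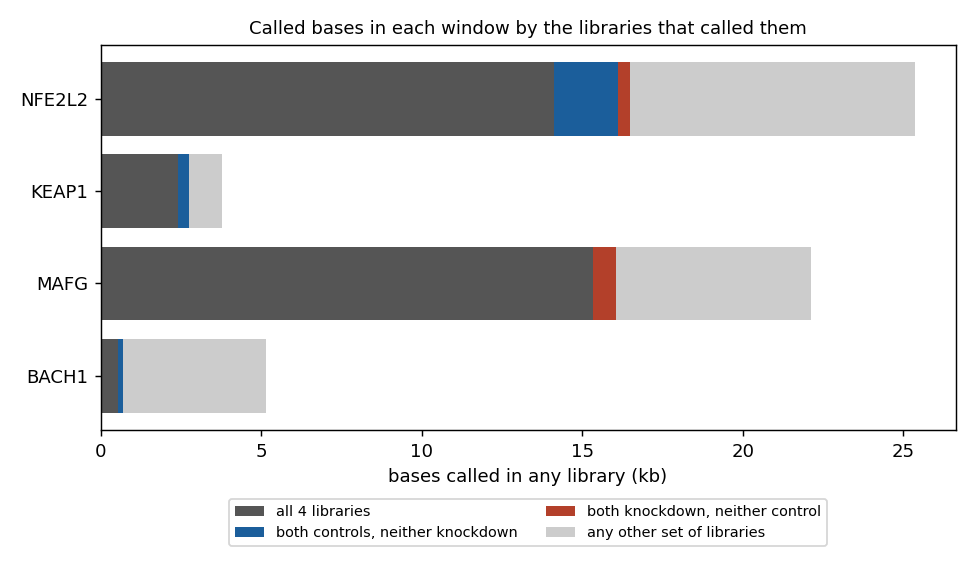
Bases called in at least 1 library in each window, in kb, split by which libraries called them. MAFG has no bases in the class called in both controls and with neither siRNA, and KEAP1 and BACH1 have none in the opposite class.

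Across the whole lists, peaks numbered 45537 to 48216 per library and covered 61.7 to 70.4 Mb, with median peak widths of 670 to 798 bp. The lists carry no read counts, so the depth behind each value is unknown and a stretch without a peak is not a stretch without acetylation. Called length over the genome was higher in control 1 and siRNA-1 (67.9 and 70.4 Mb) than in control 2 and siRNA-2 (62.1 and 61.7 Mb). The differences between the knockdown and control libraries of the same number are therefore given for the windows. For NFE2L2 they were -1087 bp for siRNA-1 minus control 1 and -3963 bp for siRNA-2 minus control 2. For KEAP1 they were -650 and -907 bp, for MAFG 4473 and 1113 bp, and for BACH1 -630 and -1145 bp.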

How the data were processed

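H3K27ac was measured by chromatin immunoprecipitation and sequencing of single-end reads of 101 bases, per the labels' protocols. The submitters' processing notes name MACS2 2.2.7.1, SAMtools 1.7.0, BWA 0.7.17 and build hg19. Tool options and any use of input were not given in the sources used here. Each library has its own deposited peak list with a fold enrichment, a score, a −log10 p and a −log10 q for every peak, made by the authors. The 4 input libraries were not analysed here.

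Gene spans were used as given to the nearest 1 kb, so distances from a start carry that error; strands came from RefSeq. Peaks were merged over lists at an overlap of 1 bp and compared with Python 3.11.15 and SciPy 1.17.1. Called length and peak number per window, knockdown minus control, were tested by an exact permutation test (two-sided). Tiles of 127.25 kb, the mean window length, with at least 1 called base gave the background for windows. The merging was tested on simulated lists of 60669 regions: all of 200 planted lost, 200 gained and 200 lengthened regions were recovered. Planted lost and gained regions were wholly absent from a group. The planted lengthening was large and was called by a stricter rule than that used on the real lists. Recovery was thus a check of the code and does not bear on smaller differences in length. Alternatives were another flank, a −log10 q of at least 10, equal called length, other merging, and leaving out each library. By the naming rule, the start region, any lost or gained region and the 2 strongest other regions of each window called in all 4 libraries were named, strength being the lowest of the 4 best −log10 q values. This uses the knockdown libraries: it put the inner NFE2L2 region above the upstream one, which had the higher fold enrichment in both controls. In addition, the regions upstream of and 12.1 kb inside NFE2L2, those at the end of MAFG, 35.3 kb after and 8.60 and 48.9 kb before its start, and regions called in 1 library were named after their values were seen. The members and lists were chosen with earlier results of these data known. Other NRF2 pathway genes were not placed, since no hg19 annotation was used here.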

Additional observations from a re-analysis of the deposited data

How the results depend on the processing

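The direction of the called length difference held for NFE2L2, KEAP1 and MAFG under every alternative run. For KEAP1 and MAFG, whose groups did not overlap, leaving out a library could not have turned it. For BACH1 it held except with a −log10 q of 10 or more, where it was 452 bp and the peak number difference 1, since 2 siRNA-1 peaks then weigh most. The KEAP1 peak number difference of 0.5 was -0.5 at that threshold and with equal called length, and 0 with a flank of 10 kb or the gene span alone. The number of lost regions became 0 with a flank of 10 kb, with the gene span alone and with equal called length. It stayed at 1 with a −log10 q of 10 or more, but for another region. The BACH1 region dropped out, with 5.56 in control 1 and 3.80 in control 2. The NFE2L2 region 12.1 kb after the start came in, with 18.6 and 15.9 in controls 1 and 2 and 5.04 with siRNA-2. The same exchange occurred where 50% of a region had to be covered. Gained regions numbered 1 where 50% of a region had to be covered.

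Without each library in turn, the NFE2L2 peak number difference ranged from -2 to 0 and that of KEAP1 from 0 to 1. The number of lost regions was between 1 and 5 and that of gained ones between 0 and 4; fewer calls are then required. For the 14 regions called in all 4 libraries, the alternatives were chosen after seeing the data. Of 112 alternatives, 7 turned the direction, all in regions whose groups overlapped and all by leaving out a library. Where both knockdown values lie beyond both controls, leaving out a library cannot turn the direction. The absence of turns in those regions therefore says little. Without each library in turn, the difference ranged from -74 to 347 bp for NFE2L2 50.9 kb after the start. For MAFG it then ranged from -80 to 11 bp 48.9 kb before, from -167.5 to 123.5 bp 8.60 kb before, from -236 to 476 bp at the start and from -289.5 to 147.5 bp at the far edge.

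Whether the numbers in the titles pair the libraries is not stated. Over 13789 tiles, the deviations of control 1 and siRNA-1 from their group means had a Pearson correlation of 0.251, given as a description. The number was also used as a replicate block. The mean difference was then -2525 bp for NFE2L2, -778.5 bp for KEAP1, 2793 bp for MAFG and -887.5 bp for BACH1. Each had an exact sign-flip p of 0.5, the smallest that 2 pairs allow. A block leaves the mean difference unchanged by construction, so this alternative could turn no direction and does not bear on whether the libraries are paired.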
